A study of Sorghum bicolor with 8 samples.

Results

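The genes described here were those that sorghum Callus II held at a low level while Callus III and Callus I both expressed them. They were chosen from the deposited FPKM values (fragments per kilobase of transcript, relative to the size of the library), which put genes of different length on one scale. A gene was taken when it stood at 10 FPKM or more in all 4 Callus III and Callus I libraries, when the lowest of those 4 was at least 4 times the higher Callus II value, and when at least 1 Callus III library was under 1000 FPKM. This gave 96 of 34129 genes, or 1.52% of the 6315 genes at 10 FPKM or more in all 4 Callus III and Callus I libraries, which serve below as the set of comparison. Leaf played no part in the choice.

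The 8 libraries made 4 groups of 2, called biological replicates in the labels: Leaf, Callus II, Callus III and Callus I. All came from wild-type sorghum of the strain Hiro-1. Callus was induced from young embryos of 1 to 2 mm, collected 13 to 15 days after flowering, for 3 weeks in the dark at 25 °C, and the 3 types were then separated and subcultured for 20 days. Leaf was regenerated from Callus II on differentiation medium with daily cycles of 16 h light (2000 lx) and 8 h dark, so tissue, light and medium cannot be told apart wherever Leaf is set against callus. By its title the series concerns callus of differing regeneration capacity, and the labels neither rank nor describe the 3 types.

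Callus is a mass of proliferating plant cells formed in culture, usually under auxin. Cereal embryos commonly yield several kinds of callus side by side, some of which can form shoots or somatic embryos when the hormones are changed, while others cannot. These are bulk samples, in which fewer cells of a type and less RNA per cell cannot be told apart.

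None of the identifiers was paired with gene names: 0 were found in a RefSeq table of 32945 sorghum genes (assembly Sorghum_bicolor_NCBIv3). For this reason the genes are described by level, pattern and position, at most 2 identifiers per direction are printed for each comparison, and neither function nor tissue markers could be checked. The sums of FPKM ran from 595109 to 737291 per library. Read totals are not given, so the depth behind a value is unknown. Coordinates are those of the files, whose genome build is not given in the sources used here.

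The 96 genes formed a low band in Callus II against moderate to high levels in the other callus types. Their median was 2.05 and 1.98 FPKM in the Callus II libraries, against 41.7 and 37.4 in those of Callus III and 45.2 and 40.3 in those of Callus I. Over the 6315 comparison genes the medians were 35.2 and 34.5 FPKM for the Callus II libraries, 26.2 and 28.7 for those of Callus III and 31.0 and 31.4 for those of Callus I. The gap between Callus II and the others is what the rule asked for and is given as a description. The depth of the gap varied widely. The lowest Callus III or Callus I value was a median of 10.1 times the higher Callus II value, less than 5 times for 21 genes and at least 50 times for 19, counting as at least 50 the 5 genes listed at 0 in both Callus II libraries. In 31 of the 96 genes both Callus II libraries were under 1 FPKM, and in 10 at least 1 Callus II library was at 10 FPKM or more.

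**Figure D1:**
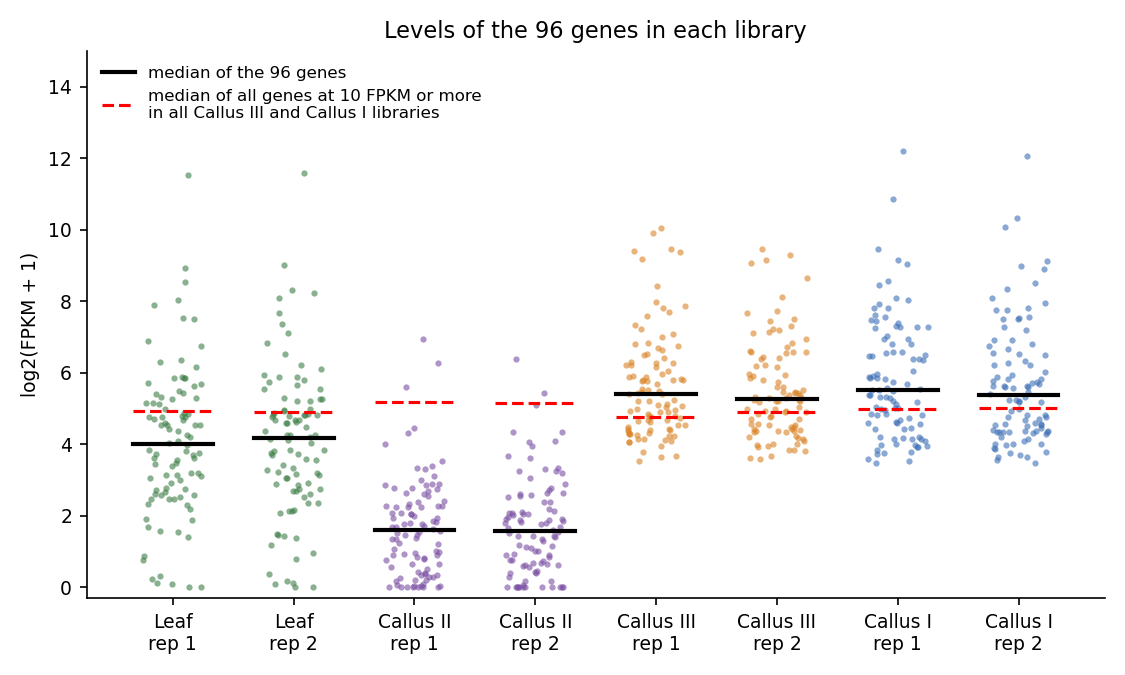
Level of each of the 96 genes (points) in each library as log2(FPKM + 1), with the median of the 96 (black lines) and of the 6315 genes at 10 FPKM or more in all Callus III and Callus I libraries (dashed red lines). The black line is far under the red one in Callus II, at 2.05 and 1.98 against 35.2 and 34.5 FPKM, and somewhat under it in Leaf, at 15.1 and 17.1 against 29.7 and 28.9 FPKM.

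At the extreme were 5 genes listed at 0 in both Callus II libraries. The 2 of the 5 with the highest value in their lowest Callus III or Callus I library were Sobic.001G272000.v3.2 (chromosome 1, 52538490 to 52538876) and Sobic.003G198600.v3.2 (chromosome 3, 52447712 to 52448826). Sobic.001G272000.v3.2 read 13.4 and 24.7 FPKM in the Leaf libraries, 0 and 0 in those of Callus II, 78.4 and 95.4 in those of Callus III and 30.5 and 36.4 in those of Callus I. Sobic.003G198600.v3.2 read 5.57 and 7.27 FPKM in the Leaf libraries, 0 and 0 in those of Callus II, 29.6 and 32.1 in those of Callus III and 45.2 and 48.1 in those of Callus I. Both were thus found in every library except those of Callus II, and each group's libraries were apart from every other group's. A 0 in FPKM files can be a failed estimate, and 3 of the 5 loci were shorter than 600 bp (354, 387 and 555 bp), so no fold is given against it.

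The 2 genes with the highest value in their lowest Callus III or Callus I library were still well detected in Callus II. Sobic.004G011566.v3.2 (chromosome 4, 947826 to 950478) read 2971 and 3081 FPKM in the Leaf libraries, 76.1 and 41.9 in those of Callus II, 958.9 and 697.5 in those of Callus III and 564.3 and 1077 in those of Callus I. Callus III and Callus I overlapped for this gene, and Leaf exceeded both. Sobic.001G400900.v3.2 (chromosome 1, 68639571 to 68640518) read 3.94 and 4.08 FPKM in the Leaf libraries, 121.2 and 82.6 in those of Callus II, 700.9 and 631.6 in those of Callus III and 705.5 and 558.4 in those of Callus I. Here the order of Leaf and Callus II was the opposite, and Callus II was the second lowest of the 4 tissues.

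The 4-fold limit cut through a continuous range. The 2 genes just inside it had ratios of 4.06 and 4.06, and the 2 just outside had 3.99 and 3.93. Inside, a locus on chromosome 2 (3857146 to 3859446, overlapping another) read 0.262 and 2.88 FPKM in the Callus II libraries, 11.7 and 16.1 in those of Callus III and 12.8 and 19.3 in those of Callus I. Outside, a locus on chromosome 9 (55836119 to 55837874) read 4.69 and 3.89 FPKM in the Callus II libraries, 18.7 and 19.7 in those of Callus III and 140.8 and 99.3 in those of Callus I. The Callus II replicates differed more in the first than in the second. On the log2(FPKM + 1) scale, the median difference between replicates over the 96 genes was 0.12 for the Leaf libraries, 0.16 for those of Callus II, 0.28 for those of Callus III and 0.40 for those of Callus I, against 0.09, 0.11, 0.17 and 0.21 over the comparison genes. More than 2-fold apart on that scale were the replicates of 1 gene for Leaf, 11 for Callus II, 2 for Callus III and 13 for Callus I.

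Callus III and Callus I, both high by the rule, differed in many of these genes, at shares near those over all genes tested. The rule did not ask for a difference between them, but it did use their values. Its floor and fold were set on the lowest library of both types, and its upper limit on Callus III alone. That limit removed 3 genes, so the counts in each direction and the median below are partly shaped by the rule. The difference between Callus III and Callus I was tested by limma on log2(FPKM + 1), with a Benjamini-Hochberg adjusted p under 0.05 as the threshold. The fit covered the 23166 genes that reached 1 FPKM in 2 or more libraries. All 96 genes passed that filter, through the levels that the rule required. Of them, 27 (28.1%) rose and 30 (31.3%) fell in Callus III relative to Callus I, and 39 did not pass the test. Over all genes tested 26.9% were higher and 33.2% lower, near the shares among the 96. Over the comparison genes 20.5% were higher and 33.8% lower, so the higher share of the 96 exceeded theirs. That excess was not tested. As deposited, the median difference was -0.17 for the 96 genes and -0.11 for the comparison genes, and the SD across genes was 1.73 and 0.97. For the 96 genes the median was -0.05 with median-ratio scaling. It was 0.09 with libraries set to equal FPKM sums without the 100 highest genes. Differences beyond 4-fold were called for 9 genes (9.38%) higher and 14 (14.6%) lower in Callus III. The shares were 6.13% and 10.3% over all genes tested and 1.2% and 4.42% over the comparison genes. The 96 genes were chosen to differ at least 4-fold between Callus II and the other callus, and the comparison genes were not. The larger shares and SD of the 96 were not tested. The fit shared its estimate of spread over all groups, and by the median difference replicates of the 96 genes differed least in Leaf and Callus II. Genes with replicates more than 2-fold apart numbered 1 for Leaf, 11 for Callus II, 2 for Callus III and 13 for Callus I. Fitted on the Callus III and Callus I libraries alone, 20 of the 96 genes were higher and 24 lower at the same threshold.

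Sobic.002G243100.v3.2 (chromosome 2, 63220532 to 63220885), a locus of 354 bp, read 666.3 and 570.1 FPKM in the Callus III libraries and 15.1 and 10.7 in those of Callus I, and was listed at 0 in both libraries of Leaf and of Callus II. Its difference of Callus III minus Callus I was 5.49 ± 0.18 log2 units (SE, n = 2 in each group; limma adjusted p = 1.49e-06). The Leaf and Callus II libraries, all at 0, entered that SE without spread, so it may be too small. Sobic.009G116700.v3.2 (chromosome 9, 45915615 to 45916682) read 181.2 and 163.1 FPKM in the Leaf libraries, 0.222 and 0.369 in those of Callus II, 680.4 and 276.1 in those of Callus III and 14.3 and 22.5 in those of Callus I. Here Callus III minus Callus I came to 4.52 ± 0.40 (SE, limma adjusted p = 8.81e-05). These genes thus had a Callus III level far above that of Callus I, and Callus II was lower still.

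In the other direction, Sobic.002G416700.v3.2 (chromosome 2, 76408092 to 76410399) read 2.23 and 1.68 FPKM in the Leaf libraries, 0.736 and 2.72 in those of Callus II, 14.5 and 16.9 in those of Callus III and 380.9 and 503.7 in those of Callus I. The difference of Callus III minus Callus I was -4.72 ± 0.34 (SE; limma adjusted p = 3.43e-05). Sobic.006G018100.v3.2 (chromosome 6, 3006463 to 3007735) read 10.9 and 12.6 FPKM in the Leaf libraries, 47.8 and 19.4 in those of Callus II, 341.2 and 201.5 in those of Callus III and 4686 and 4302 in those of Callus I, with a difference of -4.09 ± 0.41 (SE; limma adjusted p = 1.61e-04). Each was a Callus I gene first, with Callus III between Callus I and Callus II.

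**Figure D2:**
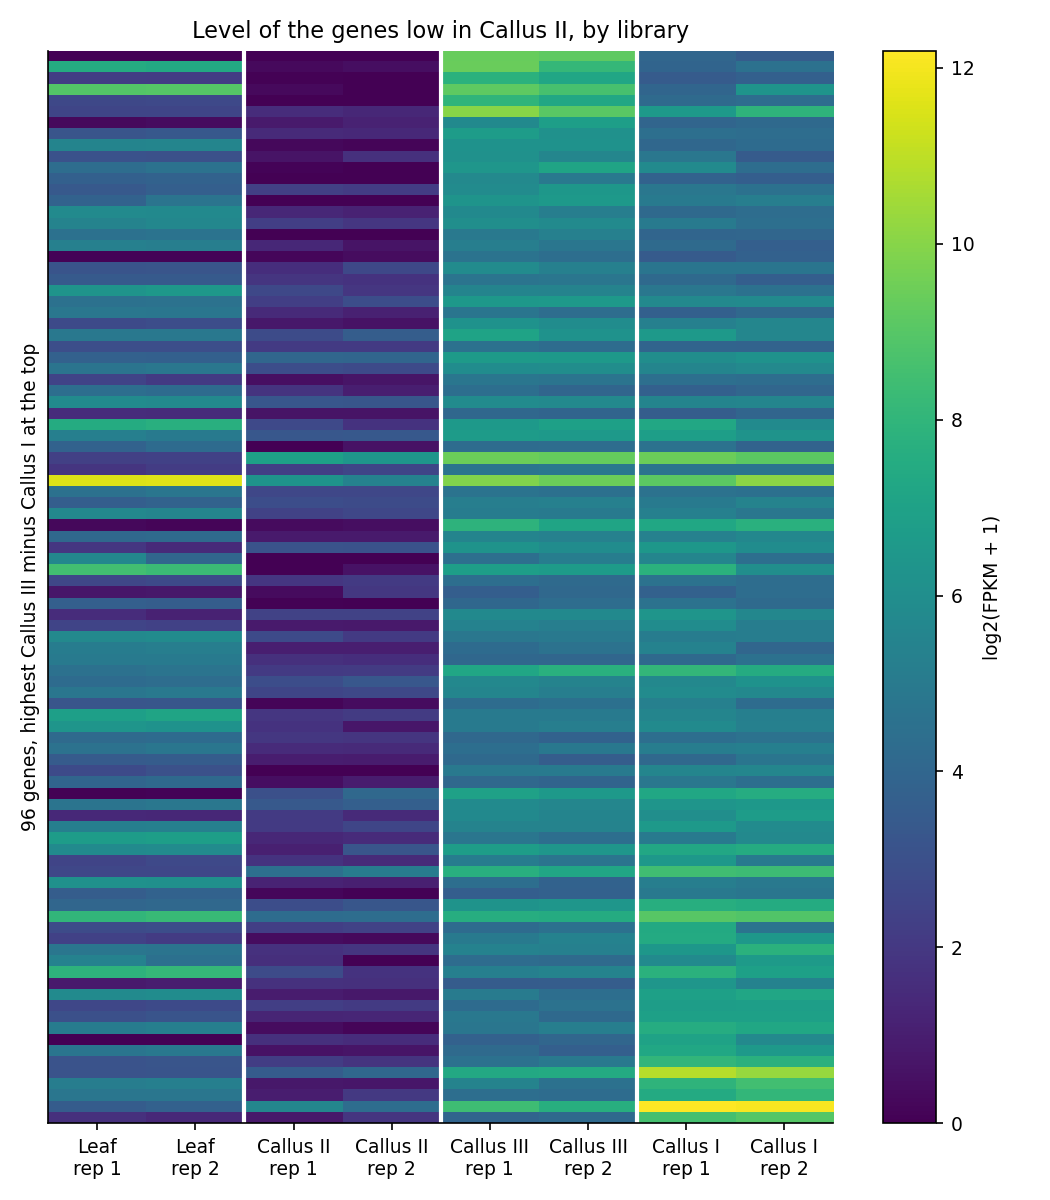
Level of the 96 genes (rows) in the 8 libraries (columns) as log2(FPKM + 1), ordered by the difference of Callus III minus Callus I. The Callus II columns are darker than those of Callus III and Callus I in every row, as the rule required, while the top rows are brightest in Callus III and the bottom rows in Callus I, where Sobic.006G018100.v3.2 reached 4686 FPKM.

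In Leaf, regenerated from Callus II, most of the 96 genes stood above their Callus II level and many below that of the other callus. Leaf values were not used by the rule, but the callus values against which they are set were. Their medians were 15.1 and 17.1 FPKM, against 29.7 and 28.9 for the comparison genes. Both Leaf libraries were at 10 FPKM or more for 58 of the 96 genes (60.4%), against 87.2% of the comparison genes. Both were under 1 FPKM for 8 genes (8.33%), against 1.24% of the comparison genes. These differences in Leaf level from the comparison genes were not tested.

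Both Leaf libraries were above both Callus II libraries for 78 genes and below both for 15, and 3 overlapped. Over the comparison genes 34.3% were above without overlap and 56.3% below, and over all tested genes 41% and 48.5%. Of the 78, 39 lay under all 4 Callus III and Callus I libraries, with a median Leaf level of 8.65 FPKM, 13 lay above all 4, with a median of 84.5 FPKM, and 26 overlapped their range. Leaf above all 4 was found for 30.2% of the comparison genes and 34.4% of all tested genes. Both Leaf libraries were below all 4 for 57 of the 96 genes in all, against 31.7% of the comparison genes and 23% of all tested genes. The rule chose genes high in those 4 libraries and low in Callus II, so where Leaf lies relative to them is partly set by it. The 15 genes below Callus II had a median of 1.62 FPKM in Leaf and 4.29 in Callus II.

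By limma, 75 genes (78.1%) were higher and 8 (8.33%) lower in Leaf than in Callus II, and 13 did not pass the test. Over all genes tested 32.4% were higher and 39% lower, and over the comparison genes 25.1% and 46.5%. The Callus II values had chosen the genes for being low, so a surplus of genes higher in Leaf is partly set by the rule, and only the Leaf side of the difference is independent of it. The median of Leaf minus Callus II was 2.41 on the log2 scale for the 96 genes, -0.29 for the comparison genes and -0.11 over all tested genes. A difference of at least 8-fold was called for 39 of the 96 genes, against 5.91% of all genes tested and 1.28% of the comparison genes, with the same limit from the rule. The count of 8 lower genes was 5 without Leaf replicate 1 and 4 without Leaf replicate 2.

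Genes nearly silent in Callus II differed widely in the leaves grown from it. Among the 31 genes under 1 FPKM in both Callus II libraries, 28 (90.3%) were at 1 FPKM or more in both Leaf libraries and 19 (61.3%) at 10 FPKM or more, against 98.5% and 87.2% of the comparison genes. Of all 96 genes 60.4% were at 10 FPKM or more in both Leaf libraries, so the 31 did not stand apart from the set in this. In 3 of the 31 both Leaf libraries were under 1 FPKM, against 8 of the 96. The median Leaf level of the 31 genes was 12.9 FPKM. Of the 5 genes listed at 0 in Callus II, Sobic.002G243100.v3.2 alone was also listed at 0 in Leaf.

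The highest Leaf level belonged to Sobic.004G011566.v3.2, described above, with a difference of Leaf minus Callus II of 5.72 ± 0.39 (SE, n = 2 per group; limma adjusted p = 1.57e-05). Next was Sobic.005G003200.v3.2 (chromosome 5, 249712 to 252683), which read 486.2 and 510.5 FPKM in the Leaf libraries, 0.224 and 0 in those of Callus II, 577.6 and 403.3 in those of Callus III and 14.8 and 78.9 in those of Callus I. Leaf lay within the range of Callus III, and the Callus I replicates were far apart. Leaf minus Callus II was 8.82 ± 0.66 (SE, limma adjusted p = 2.52e-05). It was 11.44 with a pseudocount of 0.1 in place of 1 FPKM, so its size depends on the pseudocount. Both genes were chosen for low Callus II levels and named for high Leaf levels. A large difference was thus partly built in, and the p-values are no independent support for it.

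At the low end, Sobic.010G118900.v3.2 (chromosome 10, 13178344 to 13180074) read 0 and 0 FPKM in the Leaf libraries, 2.24 and 1.95 in those of Callus II, 12.9 and 15.1 in those of Callus III and 128.7 and 52.8 in those of Callus I. It was called lower in Leaf than in Callus II (limma adjusted p = 0.00592), no fold is given against a 0, and the call was lost when either Leaf replicate was left out. Sobic.001G400900.v3.2, described above for its abundance in callus, had a difference of Leaf minus Callus II of -4.33 ± 0.20 (SE, limma adjusted p = 2.97e-06). For this gene Leaf and Callus II were separate in all libraries. Sobic.010G118900.v3.2 was named for its low Leaf level, so its p-value is not independent of that choice.

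**Figure D3:**
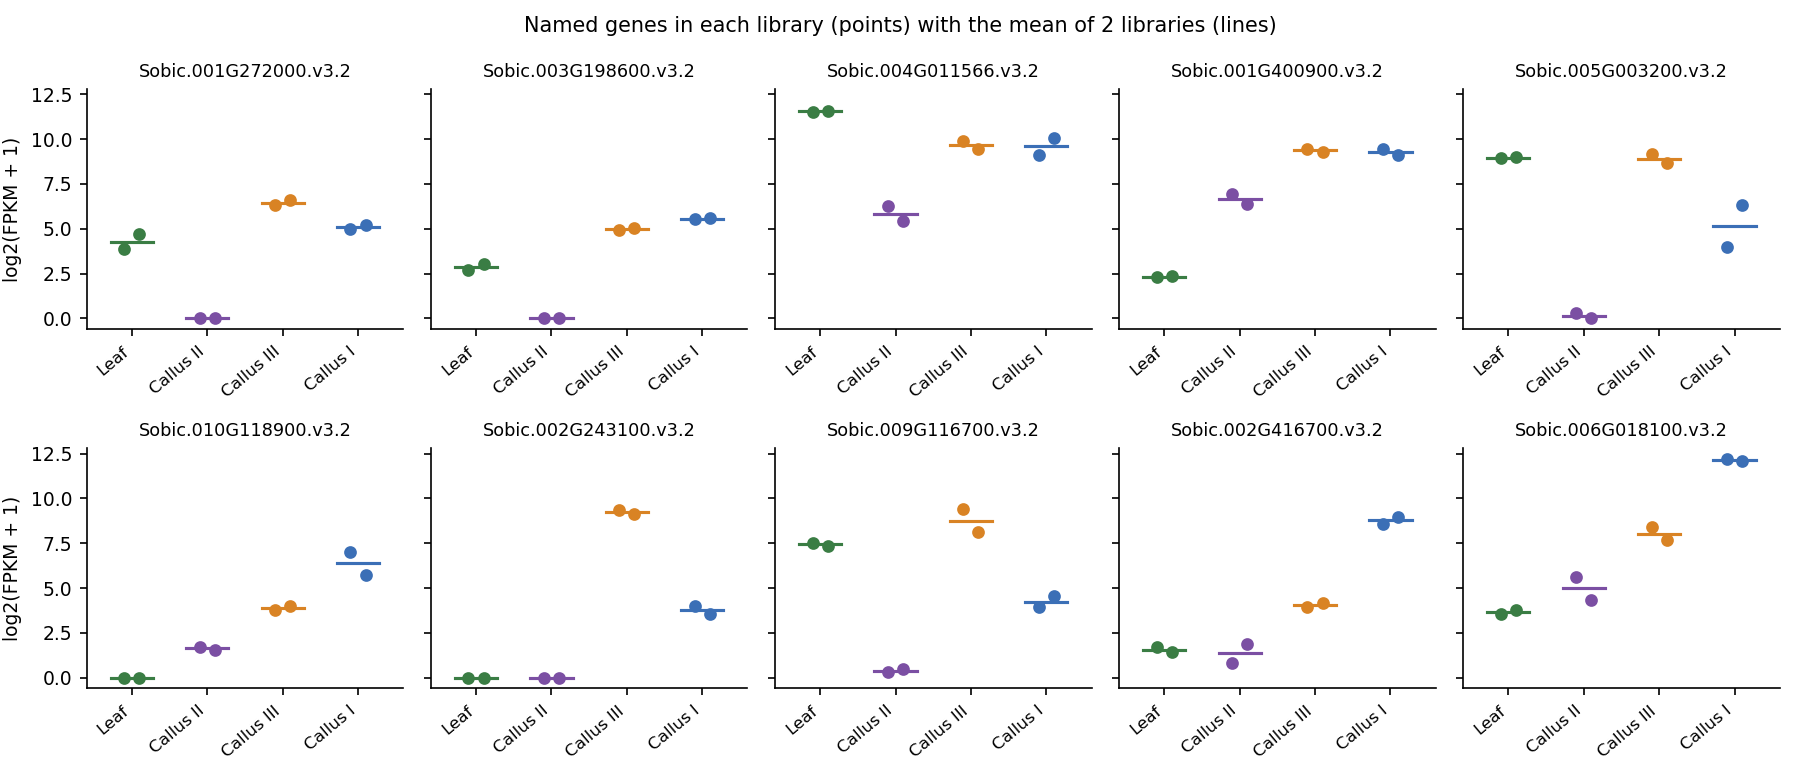
Level of the 10 named genes in each library (points) as log2(FPKM + 1), with the mean of the 2 libraries of a group (lines). In Sobic.001G400900.v3.2, Sobic.006G018100.v3.2 and Sobic.010G118900.v3.2 both Leaf libraries lie under both Callus II libraries, while Sobic.004G011566.v3.2 reaches 2971 and 3081 FPKM in Leaf against 76.1 and 41.9 in Callus II.

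The 96 genes were also divided by their call for Callus III against Callus I. Of the 27 genes higher in Callus III, 22 were higher and 0 lower in Leaf than in Callus II by limma, and 0 were lower at an unadjusted p under 0.05. Among comparison genes of the same call 22.1% were higher and 52.7% lower. Of the 30 lower in Callus III, 24 were higher and 4 lower in Leaf, against 28.6% and 44% of the comparison genes of that call. Of the 39 not called, 29 were higher and 4 lower, against 23.8% and 45.5%. The rule's low Callus II values partly set these counts too, so nothing is read from them. The median Leaf level was 12.9, 25.3 and 15.7 FPKM in these 3 sets. Across the 96 genes, the difference of Callus III minus Callus I and the Leaf level had a Pearson correlation of 0.01 and a Spearman correlation of -0.02. Leaf levels also followed callus levels loosely. Across the 96 genes the Pearson correlation of log2(FPKM + 1) means of Leaf was 0.14 with Callus II, 0.17 with Callus III and 0.14 with Callus I, against 0.47, 0.54 and 0.40 across the comparison genes. Genes are not independent replicates, all points come from the same libraries, and the rule narrows the range of Callus II.

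**Figure D4:**
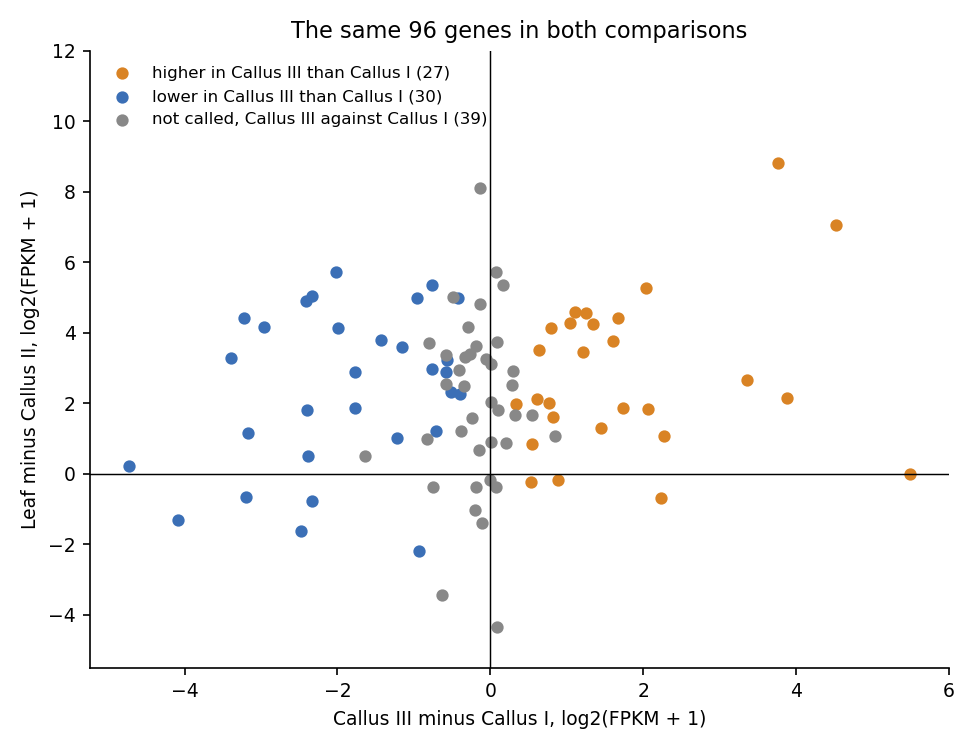
Leaf minus Callus II against Callus III minus Callus I for the 96 genes, both on the log2(FPKM + 1) scale, coloured by the limma call for Callus III against Callus I (27 higher, 30 lower, 39 not called). Most points lie above 0 on the vertical axis, which the rule's low Callus II values partly set. The Pearson correlation of 0.01 given in the text is that of the horizontal axis with the Leaf level, which is not plotted here.

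The 96 genes were spread over all 10 chromosomes, with 19 on chromosome 1, 13 each on chromosomes 2, 3 and 10, 10 on chromosome 9, 7 each on chromosomes 4 and 6, 6 on chromosome 8, and 4 each on chromosomes 5 and 7. As a share of the comparison genes of the chromosome this was highest on chromosome 10, at 2.52%, and lowest on chromosome 4, at 0.943%. The loci had a median length of 2563 bp, introns included, against 4128 bp for the comparison genes, and 9 of the 96 overlapped another locus.

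Of successive pairs of the 96 genes on a chromosome, 3 were within 100 kb, and the median gap was 2521 kb. No other set of equal size was measured, so these values have no background. The single pair with no gene between them, chosen after its values were seen, abutted on chromosome 10, from 58827900 to 58830677 and from 58830678 to 58837386. The first read 57.0 and 60.1 FPKM in the Leaf libraries, 0.899 and 0.705 in those of Callus II, 32.4 and 20.2 in those of Callus III and 122.9 and 145.5 in those of Callus I. The second read 30.87 and 30.05 FPKM in the Leaf libraries, 2.25 and 2.01 in those of Callus II, 15.7 and 15.0 in those of Callus III and 16.8 and 22.8 in those of Callus I. Callus II was lowest in both, and Leaf was above Callus III in both. Because the loci touch, reads at their border may have been assigned to either.

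The genes next to the 96 were called lower in Callus II at a rate near the background. The nearest tested gene on each side gave 187 neighbours outside the set. By limma, 51 of them (27.3%) were lower and 76 (40.6%) higher in Callus II than in the mean of Callus III and Callus I, against 22.5% lower and 41.8% higher over all genes tested. The median difference was 0.28 for the neighbours and 0.24 over all genes tested.

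Low expression in a single callus type by the same rule, without the upper limit, was found for 99 genes when the low type was Callus II, 134 when it was Callus III and 213 when it was Callus I. Genes high in a single callus type by the mirrored rule (lower library at 10 FPKM or more and at least 4 times the highest value of the other callus) numbered 304 for Callus II, 444 for Callus III and 923 for Callus I. The order of Callus II and Callus III for low genes turned with the scaling of the libraries. With median-ratio scaling, low genes numbered 137 for Callus II, 89 for Callus III and 212 for Callus I, and high genes 197, 501 and 1026. These counts were not tested against each other. Of the 99 genes, 3 reached 1000 FPKM in each Callus III library and are not among the 96.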

How the data were processed

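The authors deposited FPKM values per gene and library, per the file headers, with a gene identifier and a locus. Trimmomatic, TopHat2 2.0 and Cuffdiff are listed, without roles, per the submitters' processing notes. The sources used here do not give the genome build, settings or strand use. The 8 files were joined by identifier, and 1 was added to locus starts, after which 884 equalled a gene start in the RefSeq table, against 345 without it. Ratios of values under 0.2 FPKM between libraries were inspected for steps of whole fragments. They clustered at an estimated depth of 0.963 to 1.08 relative to Callus I replicate 1 in the other callus libraries. In Leaf the estimates were 1.27 and 1.63, with a weaker cluster. The most frequent ratio held only 10.7% to 13.5% of the pairs in callus and 5.53% and 5.94% in Leaf, so these depths are rough.

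Genes reaching 1 FPKM in 2 or more libraries (23166) were fitted in limma 3.58.1 (R 4.3.3) on log2(FPKM + 1), 1 mean per group over all 8 libraries, with a variance trend, 2-sided tests and Benjamini-Hochberg adjustment over all genes tested. This scale understates changes of low genes. The fit was also run on simulated data with 1 spread per gene for all groups. That setting cannot show how the fit does where the spread differs by group, so nothing is read from it. With 2 libraries a group, p-values reflect only the spread between those libraries, which may be technical in part. A permutation test of 2 against 2 libraries cannot go below p = 0.333, so calls rest on variance shared across genes. Named genes were the top 2 by ratio, by lowest Callus III or Callus I level, by highest and lowest Leaf level, and by called difference of Callus III minus Callus I in each direction. The rule named more genes where descriptions exist. The 34 lists of gene descriptions drawn up had 0 members without names and were not used. The genes, lists and tests were chosen with earlier results of these data known. Alternatives covered the pseudocount, filters, scaling, replicate block, variance model, libraries in the fit, overlapping loci, left-out libraries and the limits of the rule.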

Additional observations from a re-analysis of the deposited data

How the results depend on the processing

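The 96 genes became 173 with a floor of 5 FPKM and 52 with 20 FPKM. With median-ratio scaling 133 genes met the rule, all 96 among them, and with libraries set to equal FPKM sums once the 100 highest genes were left out, an alternative chosen after seeing the data, 114 did, with 93 of the 96. Leaving out 1 callus library gave 109 to 126 genes. Leaving out 1 library of either group gave 21 to 24 genes that rose and 23 to 33 that fell in Callus III relative to Callus I, 71 to 75 higher and 4 to 8 lower in Leaf than in Callus II, and, for Leaf libraries, 58 to 59 genes with Leaf below all 4 Callus III and Callus I libraries. A lone library was then assumed to vary like the other groups. All other alternatives kept these test counts within 1.5 times. Equal sums moved the median of all tested genes for Callus III minus Callus I to 0.12, against -0.03 as deposited, and gave 30 higher and 23 lower genes, with a median of 0.09, so the sign of the median over the 96 genes depends on the scaling. Median-ratio scaling gave 28 and 25, and 75 higher and 6 lower in Leaf than in Callus II. Neighbours lower in Callus II numbered 30 with a mean of at least 5 FPKM, a filter that leaves fewer genes, and 63 with median-ratio scaling, which moves the median of all genes for that contrast to -0.04, against 0.24. The shares over all genes under these settings are not given here, so neighbours were set against the background in the main fit only. The replicate block gave 26 higher and 28 lower for Callus III against Callus I and 75 and 8 for Leaf against Callus II. The labels do not say that a number pairs samples, and same-numbered deviations correlated at -0.04 between Callus III and Callus I and -0.09 between Leaf and Callus II. Without read totals, values near 0 in Callus II cannot be given a counting error.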
